A study of Mus musculus with 11 samples.

Results

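The Tfap2 genes encode the AP-2 transcription factors, a family of 5 in the mouse: Tfap2a, Tfap2b, Tfap2c, Tfap2d and Tfap2e. All 5 were found in the RefSeq gene table, which held 20560 autosomal coding genes, and they were chosen by family name with their peak counts in the deposited lists already known. Peaks of Smchd1-GFP in each gene or within 5 kb of it were collected from a list of 2840 peaks (MNase digestion) and a list of 2196 peaks (sonication). This gave 22 MNase and 2 sonication peaks. The values that chose the family were these peak counts, so the counts at its members are given as a description and no test was made on them.

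The peaks came from chromatin immunoprecipitation with an anti-GFP antibody in C57BL/6 neural stem cell lines grown from embryos of day 14.5 and passaged up to 20 times. In the MNase experiment, 2 libraries (1 male, 1 female) were from cells homozygous for a Smchd1 GFP fusion knock-in allele, 2 (1 male, 1 female) from wild-type cells without a tag, and 1 was female whole cell extract. In the sonication experiment, with chromatin sonicated for 30 min, all cells were female, with 2 libraries from Smchd1 GFP/GFP lines, 2 from wild-type lines and 2 from whole cell extract. The labels give no genotype for whole cell extract. Each experiment was deposited as 1 list of positions, with no reads, fold enrichment or score per peak. Sequencing depth and replicate spread are therefore unknown, male and female cells cannot be told apart in the MNase list, and no knock-in library could be set against its wild-type control. The experiments differed both in fragmentation and in including male cells, and the influence of these cannot be told apart. RNA was not measured, so whether any Tfap2 gene was expressed in these cells is not known.

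AP-2 factors bind GC-rich palindromic DNA as dimers. Tfap2a is needed to form the neural crest, the migratory cells that give rise to facial skeleton, pigment cells and peripheral neurons, and it also acts in skin. Tfap2b works beside it in neural crest and has a role in kidney. Tfap2c is known for trophoblast and germ cells, Tfap2d for the dorsal midbrain, and Tfap2e for olfactory neurons. Smchd1, a non-canonical SMC protein of chromatin, keeps genes silent on the inactive X and at some autosomal clusters.

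Promoter windows of the family are shown first, because MNase peaks overlapped both listed windows of Tfap2a but none listed for Tfap2b, Tfap2d or Tfap2e. At the annotated 5′ ends it differed: the first 3.04 kb of the Tfap2a span held no MNase peak. At Tfap2b an MNase peak ended 58 bp before the annotated start. The windows are from RefSeq (GRCm38.p6) and run 5′ to 3′ over 300 bases, from 250 before the transcription start to 50 after it. Capitals mark CG dinucleotides. The table matched 4 of the 5 genes with 7 windows. Those of Tfap2a and the single ones of Tfap2b and Tfap2e are printed. Tfap2c was not matched.
Tfap2a, distal start, chr13:40734871-40735170, minus strand: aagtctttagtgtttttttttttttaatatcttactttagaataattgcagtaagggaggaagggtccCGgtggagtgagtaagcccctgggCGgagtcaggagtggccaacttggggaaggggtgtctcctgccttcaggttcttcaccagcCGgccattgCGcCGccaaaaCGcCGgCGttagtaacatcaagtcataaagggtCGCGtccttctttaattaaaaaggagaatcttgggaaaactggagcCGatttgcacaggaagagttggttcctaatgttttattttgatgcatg
Tfap2a, proximal start, chr13:40733746-40734045, minus strand: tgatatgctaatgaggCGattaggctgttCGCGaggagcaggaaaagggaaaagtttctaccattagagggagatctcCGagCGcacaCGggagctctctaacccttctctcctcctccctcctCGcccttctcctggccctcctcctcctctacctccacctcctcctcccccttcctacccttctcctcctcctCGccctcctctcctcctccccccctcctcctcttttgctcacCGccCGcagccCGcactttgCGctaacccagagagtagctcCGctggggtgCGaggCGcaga
Tfap2b, chr1:19211804-19212103, plus strand: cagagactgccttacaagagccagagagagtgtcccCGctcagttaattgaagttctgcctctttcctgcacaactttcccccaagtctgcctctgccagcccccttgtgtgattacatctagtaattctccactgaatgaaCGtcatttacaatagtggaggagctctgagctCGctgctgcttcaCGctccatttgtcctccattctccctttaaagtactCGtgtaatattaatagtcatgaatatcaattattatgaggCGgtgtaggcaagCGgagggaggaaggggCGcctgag
Tfap2e, chr4:126736220-126736519, minus strand: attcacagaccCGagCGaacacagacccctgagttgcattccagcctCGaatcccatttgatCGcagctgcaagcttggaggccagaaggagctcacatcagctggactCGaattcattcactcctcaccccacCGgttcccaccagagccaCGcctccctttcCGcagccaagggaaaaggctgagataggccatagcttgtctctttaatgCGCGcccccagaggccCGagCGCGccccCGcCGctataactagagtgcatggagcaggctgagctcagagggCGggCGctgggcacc

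MNase peaks were found at 3 of the 5 genes and were concentrated at Tfap2a. Tfap2a had 15 peaks, Tfap2b 5 and Tfap2c 2, while Tfap2d and Tfap2e had 0. Of all autosomal coding genes, 5.58% had an MNase peak within 5 kb. Tfap2a accounted for 68.2% of the family's MNase peaks and for 77.8% of the bases in them. The sonication list had 1 peak at Tfap2a, 1 at Tfap2b and 0 at the other members, where 2.95% of autosomal coding genes had one. Measured to the nearest edge, the counted peak farthest from its gene was the sonication peak of Tfap2b, at 3058 bp. Just outside the 5 kb limit, a 300 bp MNase peak lay 5213 bp upstream of Tfap2a and was not counted.

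**Figure D1:**
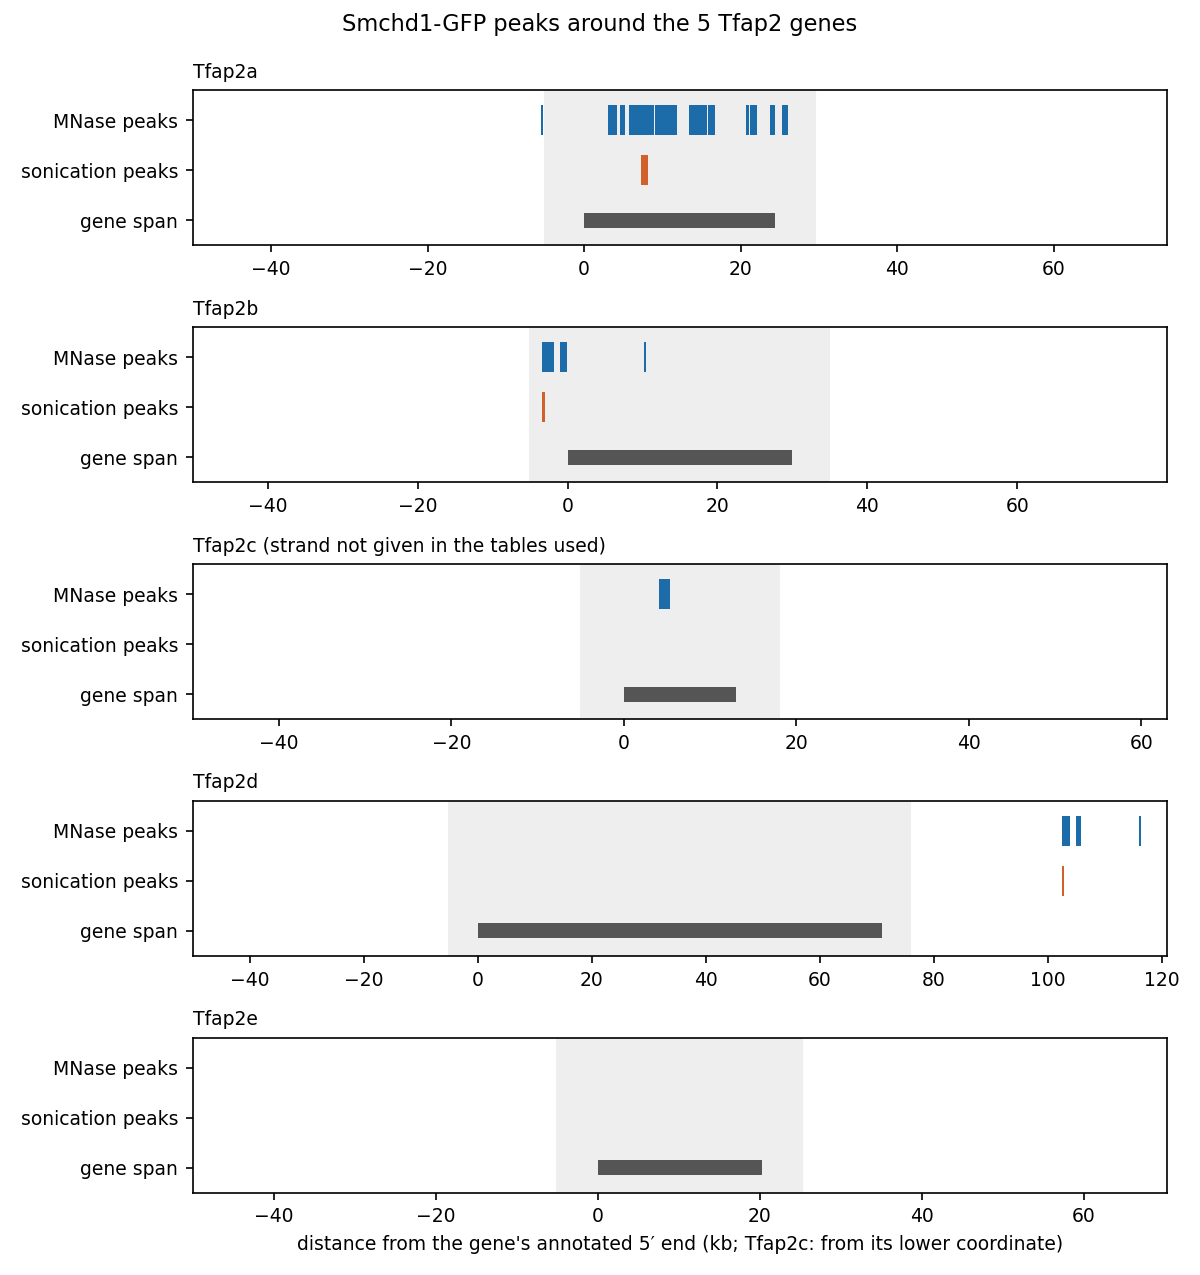
Positions of peaks around each Tfap2 gene, as distance in kb from the gene's annotated 5′ end (for Tfap2c, whose strand the tables used here do not give, from its lower coordinate). Blue blocks are MNase peaks, orange blocks sonication peaks, dark bars the gene spans and grey shading the gene with 5 kb on each side. Tfap2a carries 15 MNase peaks in the shaded window and Tfap2e none, and the blocks at the right of Tfap2d are those of Tfap2b.

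Tfap2a lies on chromosome 13 from 40713802 to 40738238 (mm10), on the minus strand, and spans 24.4 kb. Its 15 MNase peaks reached from 40712251 to 40735200, a stretch of 22.95 kb, and filled 59.5% of it. Within the gene itself 52.8% of the bases were in an MNase peak. For Tfap2b this share was 1.00% and for Tfap2c 9.27%. Along Tfap2a the coverage was uneven: of 3 equal parts of the gene, the part at the 5′ end was covered to 53.5%, the middle to 77.9% and the 3′ part to 27.0%.

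The peaks of Tfap2a formed 4 stretches when those no more than 1 kb apart were joined. The one nearest the 5′ end was the longest, with 8.85 kb from 40726351 to 40735200. It held the widest peak, 3.15 kb from 40729351 to 40732500, which placed 29 among the 2840 MNase peaks by width. The next stretch ran over 3.30 kb from 40721551 to 40724850. Near the 3′ end were stretches of 1.35 kb, from 40716151 to 40717500, and of 2.25 kb, from 40712251 to 40714500. The last of these passed the end of the gene, and its outer peak lay 802 bp beyond it.

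Individual MNase peaks at Tfap2a were 300 to 3150 bp wide, with 3 at the smallest width in the list, 300 bp, and 4 over 1 kb. The 4 widest, of 3.15, 1.65, 1.35 and 1.20 kb, had their midpoints 7.31, 9.86, 14.96 and 11.3 kb from the 5′ end. All 4 were therefore in the gene and downstream of both listed starts. Between neighbouring peaks there were 5 cases with no gap and 9 with a gap of 150 to 4050 bp, so the number 15 depends on where the list splits a continuous stretch. With adjoining peaks joined, 10 remained.

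**Figure D2:**
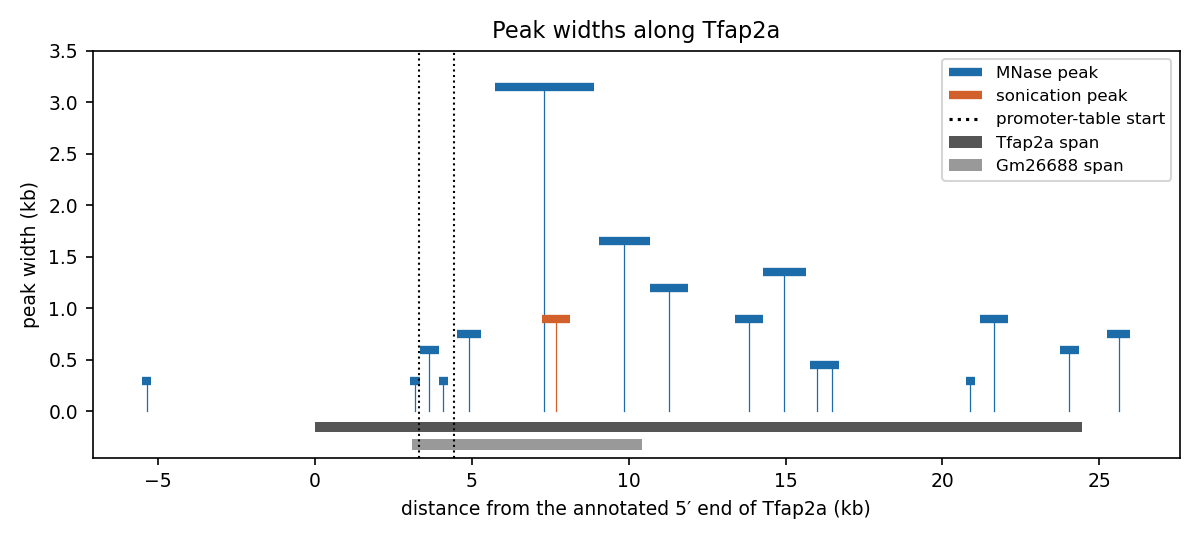
Width of each peak at Tfap2a in kb against distance from the annotated 5′ end of the gene in kb; each horizontal bar covers the peak's own extent, and a thin line drops from its midpoint. Dark and light grey bars mark the spans of Tfap2a and Gm26688, and dotted lines the 2 listed transcription starts. The widest MNase peak, of 3.15 kb, contains the sonication peak of 900 bp, and no MNase peak lies in the first 3.04 kb of the span.

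Gm26688, a non-coding RNA gene listed under the synonym Tfap2a-as1, lies inside the Tfap2a span from 40727808 to 40735162. MNase peaks covered 87.8% of it, and 6 of them overlapped it. These peaks cannot be assigned to one gene rather than the other. The remaining annotated neighbour within 50 kb, the pseudogene Gm6245, had no peak of either list within 5 kb.

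The promoter windows of Tfap2a sat at the edge of its longest stretch. The distal start, 3.32 kb into the annotated span, lay inside a peak: its window shared 270 bp with the peak from 40734901 to 40735200 and 30 bp with the adjoining one. The proximal start, 4.44 kb into the span, lay 95 bp from the nearest peak, and 45 bp of its window were in the peak from 40734001 to 40734300. Upstream of the distal window the annotated span of Tfap2a held no further peak. Of the 20085 promoter windows of autosomal coding genes, 0.991% overlapped an MNase peak. No Tfap2 window overlapped a sonication peak, where 0.0797% of the coding windows did.

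Tfap2b showed a different layout, with most of its peaks in front of the gene. It lies on chromosome 1 from 19208908 to 19238845 on the plus strand and spans 29.9 kb. An MNase peak of 1500 bp ran from 19205551 to 19207050. A group of 3 adjoining peaks of 300 bp each followed, from 19207951 to 19208850, and ended 58 bp before the annotated start. These 4 upstream peaks came to 2400 bp. The fifth peak, also of 300 bp, was in the gene from 19219051 to 19219350. The only listed promoter of Tfap2b starts 3.15 kb into the span and held no peak, the nearest lying 3204 bp away.

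Tfap2c, on chromosome 2 from 172545678 to 172558622, is the shortest member at 12.9 kb. It had 2 adjoining MNase peaks of 600 bp, from 172549801 to 172551000, both inside the gene. The nearest sonication peak was 894 kb away. None of the 5 non-coding or pseudogene neighbours within 50 kb, Gm40009, Gm14303, Gm35864, Gm35982 and Gm36038, had a peak of either list within 5 kb.

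Tfap2d is the longest member, 70.9 kb on chromosome 1 from 19103022 to 19173948, and had no peak in the gene or within 5 kb in either list. Tfap2b follows it on the same strand after 35.0 kb. At 50 kb the window of Tfap2d took in the 5 MNase peaks and the 1 sonication peak of Tfap2b, the nearest of them 31.6 kb beyond the end of Tfap2d. These peaks are thus shared by both windows and are not separate sites. Gm15825 and Gm10075, which overlap Tfap2d, had no peak within 5 kb either.

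Tfap2e, on chromosome 4 from 126716003 to 126736269, spans 20.3 kb and had no peak even within 50 kb. Its nearest MNase peak was 634 kb away and its nearest sonication peak 199 kb away. The coding neighbours Psmb2, a proteasome subunit gene, Ncdn, the neurochondrin gene, and AU040320 also lacked a peak within 5 kb, as did the pseudogene Gm12933. Within 50 kb, 11.9% of autosomal coding genes had an MNase peak and 6.77% a sonication peak.

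Both sonication peaks of the family coincided with MNase peaks. At Tfap2a, the sonication peak of 900 bp from 40730101 to 40731000 lay wholly inside the 3.15 kb MNase peak. At Tfap2b, the sonication peak of 300 bp from 19205551 to 19205850 shared its start with the 1500 bp MNase peak and lay wholly inside it. The overlap was thus 2 of 22 MNase peaks (9.09%) and 2 of 2 sonication peaks. Over all autosomes, 1.66% of MNase peaks overlapped a sonication peak and 2.98% of sonication peaks overlapped an MNase peak. In each gene the overlapped peak was the widest MNase peak of that gene. A gene with peaks in both lists was uncommon, at 0.793% of autosomal coding genes, and Tfap2a and Tfap2b were 2 of these 163.

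Widths of the family's MNase peaks lay within the range of the rest of the list. The 22 MNase peaks had a median width of 600 bp and a range of 300 to 3150 bp, and 31.8% were at the smallest width. The other 2806 autosomal MNase peaks had a median of 450 bp, with a middle range (lower to upper quartile) of 300 to 600 bp and a maximum of 16200 bp, and 38.1% were at the smallest width. The family held 0.778% of autosomal MNase peaks and 1.00% of their bases. None of the 5 genes lay in any of the authors' 11 broad domains, and the nearest domain to Tfap2a on its chromosome was 24.7 Mb away. The chromosomes of Tfap2b, Tfap2c, Tfap2d and Tfap2e held no domain at all. The share of all coding genes in a domain was not computed, so the absence is not read as a trait of the family.

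By number of MNase peaks, Tfap2a stood among Hox genes. Only Hoxb3, Hoxd3 and Hoxa3, homeobox genes that pattern the body axis, had more, with 21, 19 and 17. Genes ranked below Tfap2a included Hoxb6 with 12, and Hoxb7, Hoxb8 and Hoxc4 with 11 each. Hoxb3, Hoxb6, Hoxb7 and Hoxb8 lie so close together that the 5 kb windows of neighbours overlap. A peak can therefore be counted for several of them, and their counts are not separate sites. Per length the order changed. Counted with 5 kb on each side, Tfap2a had 4.36 MNase peaks per 10 kb, while Hoxb7 had 7.55, Hoxb3 4.13 and Hoxa3 3.15. By share of the same window covered, Tfap2a (39.6%) placed 38 among autosomal coding genes, and Hoxa3 and Hoxb3 had 81.1% and 36.3%. At least 5 MNase peaks, the number at Tfap2b, were found at 0.404% of autosomal coding genes, and at least 15 at 0.0195%.

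**Figure D3:**
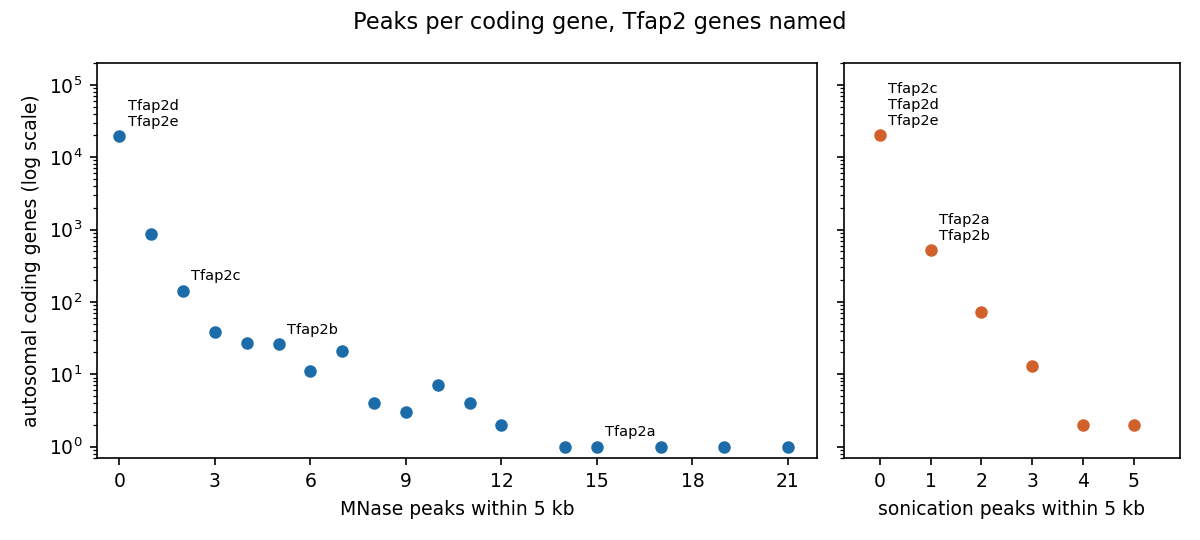
Number of autosomal coding genes (log axis) by how many peaks they had within 5 kb, for the MNase list (left, blue) and the sonication list (right, orange); each point is a count of genes. Names mark where the Tfap2 genes fall: Tfap2a at 15 MNase peaks is at the far end of the range, which reaches 21, and Tfap2d and Tfap2e are at 0 in both lists.

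CG content did not order the family by peaks. The distal and proximal windows of Tfap2a held 11 and 15 CG dinucleotides and a GC content of 46.3% and 61.0%. Tfap2e, with no peak, had the most, 17, at 60.3% GC. Tfap2b had 8, and the 3 windows of Tfap2d had 5, 5 and 10. The Tfap2d windows with 5 share most of their bases, so the 7 windows of the family are not all separate sequences. Over all autosomal coding promoters, windows that overlapped an MNase peak held a median of 21 CG dinucleotides and the remaining ones 13. Both Tfap2a windows were therefore below the median of the windows with a peak. The palindromic AP-2 motif GCCNNNGGC, which reads the same on both strands, was in none of the 7 windows and in 20.2% of coding promoters.

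**Figure D4:**
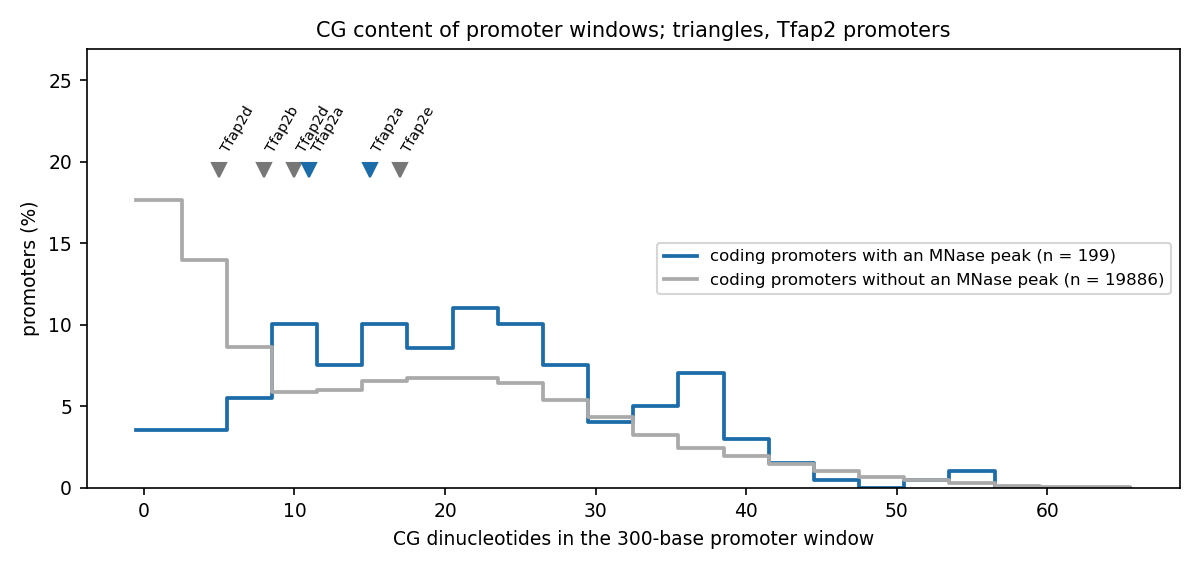
Share of autosomal coding promoter windows (percent) by number of CG dinucleotides in 300 bases, for windows that overlap an MNase peak (blue line) and for the rest (grey line). Triangles mark the windows of the Tfap2 genes, blue where an MNase peak overlaps; Tfap2a is at 11 and 15, and Tfap2e, with no peak, at 17.

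Other genes of neural crest and of AP-2 biology were counted in 5 lists of 67 genes, drawn up with earlier results of these data known. MNase peaks lay within 5 kb of 17 of the 67 (25.4%), where 5.58% of autosomal coding genes had one. By list, it was 7 of 14 neural crest specifier genes (median 0.5 peaks a gene), 4 of 14 neural plate border genes, 4 of 17 genes of crest derivatives or AP-2 targets and 2 of 12 epidermis and trophoblast partners. None of the 10 AP-2 cofactors and regulators had one. The median was 0 in these other lists, as over all autosomal coding genes. Sonication peaks lay at 3 of the 67 genes (4.48%), a share near the 2.95% of autosomal coding genes. No set test was made, and the counts hold for these lists only.

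Among neural plate border genes, Pax3, which encodes a paired-domain factor of crest and muscle progenitors, had 9 MNase peaks. Its span is 95.9 kb long. Dlx6, a distal-less homeobox gene of branchial arches, had 6, and Msx1, a homeobox gene of the neural border and face, had 5 of up to 1.95 kb. Zic1, a zinc finger gene of the neural border, had 3. Msx1 was the only one of the 67 genes with a peak in both lists, its sonication peak being 1.20 kb wide.

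Specifier genes had few peaks each. Snai2, a zinc finger gene of crest cell migration, and Twist1, a bHLH gene of cranial mesenchyme, had 2 MNase peaks each. Id2 and Id3, inhibitors of bHLH factors, Mycn, a Myc-family proto-oncogene, and Rxrg, a retinoid receptor gene, had 1 each. Sox5 also had 1 and is named although it fell outside the naming rule. None of the 14 had a sonication peak within 5 kb.

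Later genes of the pathway gave a mixed count. Alx1, a homeobox gene of the face, had 5 MNase peaks of up to 1.95 kb, Hand2, a bHLH gene of sympathetic neurons and branchial arches, had 4, and Ednrb, the endothelin receptor gene of pigment and enteric lineages, had 1. Gata3, a zinc finger gene of trophoblast and sympathetic neurons, had 5 and Cdx2, a homeobox gene of trophoblast, had 1. Mitf, the pigment cell regulator, and Crebbp, a coactivator of AP-2 factors, had 1 sonication peak of 300 bp each and no MNase peak. The remaining 48 of the 67 genes had no peak of either list within 5 kb. Cited1, which lies on the X, was among them.

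**Figure D5:**
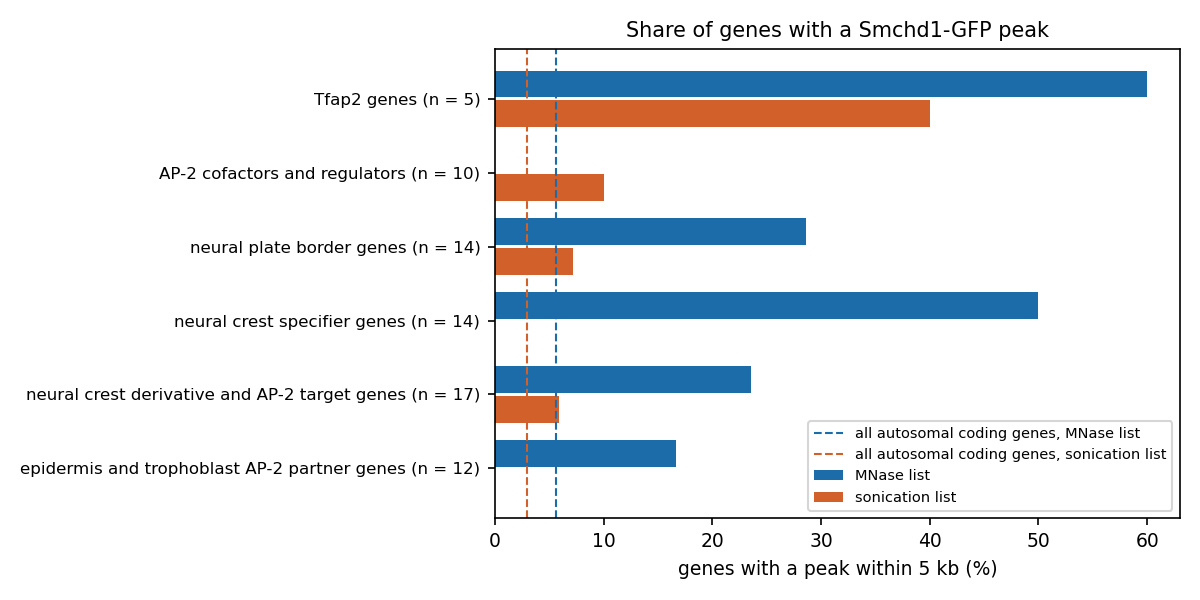
Percent of genes with a peak within 5 kb, for the Tfap2 genes and for 5 lists of related genes, with the number of genes in each list in brackets; blue bars are the MNase list and orange bars the sonication list, and dashed lines the share of all autosomal coding genes (5.58% and 2.95%). The Tfap2 bars stand for 3 and 2 of 5 genes that were chosen with these counts known.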

How the data were processed

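Peaks came from 11 libraries in 6 groups, grouped by title. Per the submitters' processing notes, Bowtie 0.12.9, MACS2, bcl2fastq and build mm10 were involved, in roles that are not described. The authors deposited 1 peak list per experiment; cells of the MNase list name SeqMonk. Only starts and ends, on a grid of 150 bp with widths of at least 300 bp, were used. The use of controls in calling is not described. The authors' deposited score per domain, on an unstated scale, was not used.

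Gene spans and promoters were from RefSeq GRCm38.p6, the assembly of mm10; genes ending within the first 3 Mb of a chromosome were left out. Exons were not used. A peak counted if at least 1 bp was in the gene or its 5 kb flanks (50 kb as the wider window). Counting was tested on simulated data; Python 3.11.15 and pandas 2.3.3 were used. The members and lists were chosen with earlier results of these data known. Named genes were the 5 Tfap2 genes, all genes within 50 kb of one, up to 6 genes with a peak per list by number of MNase peaks, and the coding genes ranked up to 6 places above and below Tfap2a by that number. A few genes within this rule are left unreported. Other windows, peak widths, overlaps and merging were tried.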

Additional observations from a re-analysis of the deposited data

How the results depend on the processing

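Of 92 recomputed values, 73 stayed within 1.5 times the reported one. The 73 include members without a peak, whose count cannot rise with a narrower window, a width filter or merging. They are therefore not all a measure of stability. The 22 MNase peaks of the family became 14 with adjoining peaks merged and 7 with peaks up to 1 kb apart merged, since fewer pieces are then counted. Tfap2a had 4 by the last rule, and 29 coding genes had more. Tfap2b had 1 MNase peak in its span or wider than 300 bp, against 5. With no flank, or only peaks wider than 300 bp, the sonication list had 1 member with 1 peak, Tfap2a. The 3 related genes with a sonication peak became 5 of 67 (7.46%) at 50 kb, where 6.77% of autosomal coding genes had one. With only peaks wider than 300 bp it was 1 gene, where 1.12% of autosomal coding genes had such a peak. Tfap2d gained 5 MNase peaks at 50 kb, those of Tfap2b. The other counts moved less or were single genes. No paired analysis was possible because each experiment is 1 list with no value per library; for the same reason no library could be left out. Without depths, absence of a peak at Tfap2d or Tfap2e does not show absence of Smchd1.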
